A study of Drosophila melanogaster with 3 samples.

Results

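Candidate binding sites of CG1647 whose summit lay in a coding exon away from promoters, and which the authors' reproducibility filter did not keep, were examined in whole Drosophila melanogaster embryos. They were chosen by 3 criteria on the pooled candidate list of 19204 peaks. A peak had to overlap none of the 3123 peaks retained by the filter on the irreproducible discovery rate (IDR). Its summit had to lie more than 500 bp from every transcript 5′ end (TSS) of a protein-coding gene and inside annotated coding sequence. Of the 15633 pooled peaks that overlapped no retained peak, called unretained here, 3007 met the criteria and are called coding candidates below. They were 19.2% of the unretained peaks (exact Clopper-Pearson 95% interval 18.6 to 19.9), beside 4388 at promoters, 5095 in introns and 2174 in intergenic sequence.

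The chromatin came from 1 stable transgenic fly line that expressed CG1647 with GFP at its C-terminal end, and was immunoprecipitated with an antibody against GFP. Embryos of both sexes were pooled over 0 to 24 h of development, so chromatin of all embryonic tissues was mixed and tissues cannot be told apart. The peak lists do not show in which of them the tagged protein was present. There were 3 biological replicates of 1 group and no second condition, so the comparisons here are between replicates, between classes of candidates and between candidates and the annotated genome. Sequencing depth is unknown, because only peak lists were used.

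In chromatin immunoprecipitation with sequencing (ChIP-seq), a caller marks places where fragments pile up over a control. A candidate list made as input for an IDR filter is deliberately permissive and holds background as well as binding sites, and the filter keeps peaks that rank alike in independent replicates. Site-specific transcription factors are mostly known from promoters and enhancers. Coding exons are constrained by the protein they encode and in Drosophila hold more G and C than introns do.

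Examples of the sequence around the summits are given first, and base composition and repeats over all members are described further on. The 100 bases centred on a summit are shown on the sense strand of the host gene, 5′ to 3′, from the RefSeq copy of dm6, with every G and C in capitals. The first 3 are among the 15 members with the highest signal: scrib, which encodes the polarity scaffold Scribble (chr3R:26566976-26567075), cact, which encodes the inhibitor that holds Dorsal in the cytoplasm (chr2L:16314547-16314646), and mtd (chr3R:5282757-5282856).
scrib summit: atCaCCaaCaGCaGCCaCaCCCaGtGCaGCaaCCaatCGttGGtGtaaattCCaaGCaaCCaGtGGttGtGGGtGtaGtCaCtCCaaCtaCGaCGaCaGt
cact summit: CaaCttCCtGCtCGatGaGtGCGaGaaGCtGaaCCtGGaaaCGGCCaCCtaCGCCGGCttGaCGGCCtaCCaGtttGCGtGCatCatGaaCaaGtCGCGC
mtd summit: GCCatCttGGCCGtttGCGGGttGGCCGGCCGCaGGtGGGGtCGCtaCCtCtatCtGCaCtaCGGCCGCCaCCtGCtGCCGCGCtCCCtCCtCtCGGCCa
G and C made up 51, 58 and 70 of these 100 bases, in that order.

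In 5 of these 15 members a second window centred 500 bp away lay in the same coding exon. Each pair below shows the summit window and then that flank for 4 of them, and the other one, in pita, is described in words only. The windows are chr2L:22146477-22146576 and chr2L:22145977-22146076 for CG42748, chr3L:7804069-7804168 and chr3L:7803569-7803668 for CG32369, chr2L:20090139-20090238 and chr2L:20090639-20090738 for CG10747, and chr2L:4224973-4225072 and chr2L:4225473-4225572 for CG3702.
CG42748 summit: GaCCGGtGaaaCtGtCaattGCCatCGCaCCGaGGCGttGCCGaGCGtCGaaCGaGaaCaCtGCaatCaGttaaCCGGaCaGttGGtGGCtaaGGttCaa
CG42748 flank: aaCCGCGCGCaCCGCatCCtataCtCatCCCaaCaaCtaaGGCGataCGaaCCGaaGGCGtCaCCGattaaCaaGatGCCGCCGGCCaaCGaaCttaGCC
CG32369 summit: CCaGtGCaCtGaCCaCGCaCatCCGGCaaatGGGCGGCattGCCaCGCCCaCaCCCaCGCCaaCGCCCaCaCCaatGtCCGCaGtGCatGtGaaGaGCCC
CG32369 flank: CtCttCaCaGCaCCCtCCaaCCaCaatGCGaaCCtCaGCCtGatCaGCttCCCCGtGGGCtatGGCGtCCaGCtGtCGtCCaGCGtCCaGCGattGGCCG
CG10747 summit: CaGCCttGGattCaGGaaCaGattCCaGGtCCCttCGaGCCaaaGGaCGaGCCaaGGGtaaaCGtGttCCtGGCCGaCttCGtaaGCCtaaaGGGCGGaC
CG10747 flank: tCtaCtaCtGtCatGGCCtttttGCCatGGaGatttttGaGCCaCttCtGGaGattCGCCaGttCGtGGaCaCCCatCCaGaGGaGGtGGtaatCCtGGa
CG3702 summit: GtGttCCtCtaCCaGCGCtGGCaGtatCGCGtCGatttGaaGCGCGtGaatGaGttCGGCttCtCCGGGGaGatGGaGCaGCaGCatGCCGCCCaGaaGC
CG3702 flank: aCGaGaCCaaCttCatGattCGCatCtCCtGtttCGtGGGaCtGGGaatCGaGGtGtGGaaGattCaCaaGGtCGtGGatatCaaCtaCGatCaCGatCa
The G and C counts, summit then flank, were 54 and 56 in CG42748, 64 and 62 in CG32369, 56 and 50 in CG10747 and 60 and 48 in CG3702. In the 200-bp windows that the test further on uses, GC was higher at the summit in 2 of the 5 and lower in 3. CG10747 (52% and 50.5%) and CG3702 (59% and 49.5%) were higher. CG42748 (57.5% and 58%), CG32369 (56% and 62%) and pita (58% and 59%) were lower, so these examples do not show the mean difference over all members.

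A repeat of the triplet CAG, searched as CAGCAGCAG on both strands, occurred in 225 of the 3007 coding candidates. The repeats in the members with the highest signal among them, chosen after their values were seen, are in capitals here: B4 (chr2L:13512953-13513052) and Samuel (chr2L:11014420-11014519). The B4 summit is at base 291 of a first coding exon of 334 bp. The last bases of its window, after both repeats, therefore lie beyond that exon.
B4 repeat: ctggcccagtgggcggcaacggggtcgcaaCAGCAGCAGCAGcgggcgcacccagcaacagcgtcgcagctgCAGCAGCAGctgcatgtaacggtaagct
Samuel repeat: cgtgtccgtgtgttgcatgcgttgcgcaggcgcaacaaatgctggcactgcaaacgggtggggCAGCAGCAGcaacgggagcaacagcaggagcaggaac

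The peak signal, the authors' own value for each peak, was low throughout, as the choice of members required. Every pooled peak was 390 bp wide. The signal of the coding candidates had a median of 61.3 (interquartile range 56.2 to 70.0) and ran from 52.3 to 124.0, while the weakest retained peak had 126.2. The median was 65.8 for the unretained peaks in introns and 71.0 for those at promoters. The q-value, which the authors' caller gave as −log10 q, was under 0.05 for 10 of the 3007, and the median −log10 q was 0.0936. It was thus 0.05 or more for 2997 coding candidates. Among the other unretained peaks, q was 0.05 or more for 4925 of 5095 in introns, 4136 of 4388 at promoters and 2114 of 2174 in intergenic sequence. The share under 0.05 was therefore smaller in coding candidates than in each of those classes. Left out by the criterion on overlap alone were 11 coding peaks that overlapped a retained peak, with signals from 66.3 to 736 and a median of 141. At the edge of the distance limit, 212 members lay above 500 and up to 600 bp from a TSS, and 213 pooled peaks with a coding summit lay above 400 and up to 500 bp from one. These values describe the choice and were not tested.

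Members are not all independent of each other. Of the 3007, 156 overlapped 1 other member, and joining these left 2929 regions. In 2595 (86.3%) the summit lay in coding sequence of every coding transcript of its gene, and in 0 did it lie in coding sequence of 2 genes. Of the members, 97 lay within 500 bp of the start of a noncoding gene's transcript.

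The coding share of candidates was low in the best ranks of each list and higher further down. The rise did not run to the end of every list. In replicate 1 the share was 28.9% at ranks 10001 to 11000 and 22.5% at 29001 to 30000. In replicate 2 it was 24.8% at ranks 13001 to 14000 and 20.9% at 16001 to 17000. Replicate 3 held 21.1% at ranks 18001 to 19000 and 21.3% at 29001 to 30000. Among the 3123 peaks with the highest signal of each replicate, 1.67% of summits in replicate 1, 0.256% in replicate 2 and 0.672% in replicate 3 were coding and beyond 500 bp of a TSS, a mean of 0.865% ± 0.724 (SD, n = 3). From there to rank 17977, the length of the shortest list, the shares were 22.7%, 17.8% and 14.6% (mean 18.4% ± 4.08, SD, n = 3). The lower ranks held the larger share in 3 of 3 replicates. Coding bases beyond 500 bp of a TSS, called eligible coding bases here, came to 18.9 Mb. They were 15.9% of all bases beyond that distance, while coding candidates were 26.7% of the 11245 unretained peaks there.

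**Figure D1:**
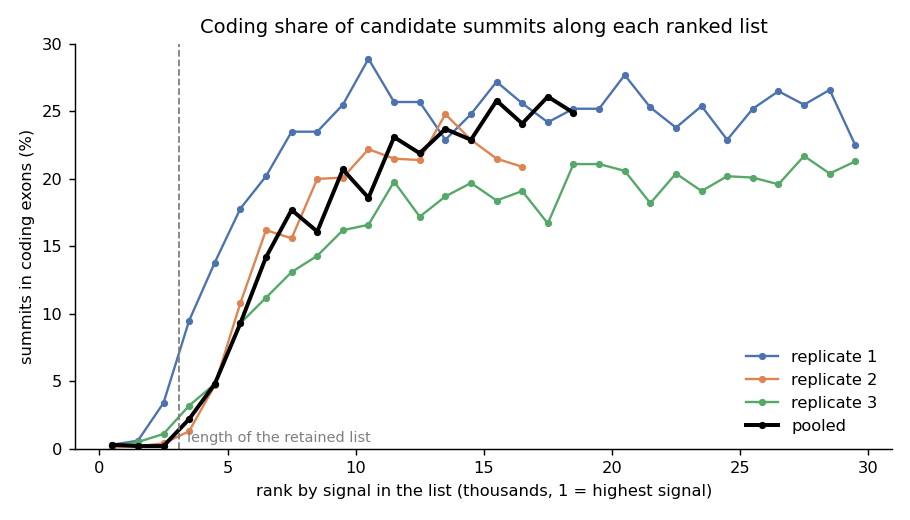
The share of summits in eligible coding sequence (y axis, %) is plotted for each 1000 peaks along lists ranked by signal (x axis, in units of 1000 ranks), with a line for each replicate and a thicker one for the pooled list. In every list the share is under 1% in the best 1000 peaks, and in the pooled list it reaches 26.1% at ranks 17001 to 18000.

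The next question was how often the coding candidates came up in the replicates on their own. In lists cut to the best 17977 peaks, 63.0% of them overlapped a peak of replicate 1, 54.3% one of replicate 2 and 48.0% one of replicate 3, by at least 1 bp. Replicate 1 was the highest and replicate 3 the lowest, and the mean was 55.1% ± 7.53 (SD, n = 3). The pooled list was made from the same reads, so these shares describe the members and are no independent test.

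Of the coding candidates, 483 (16.1%) were found in all 3 replicates, 1167 in 2, 1188 in 1 and 169 in 0. The replicates each held some that the others lacked: 505 were found in replicate 1 alone, 366 in replicate 2 alone and 317 in replicate 3 alone. Unretained peaks in introns were found in all 3 replicates in 26.0% of cases and those at promoters in 34.3%. In the best 3123 peaks, 48, 3 and 14 coding candidates were found in replicates 1, 2 and 3. Of these, 0 were there in all 3 and 2 were there in at least 2. The choice left out peaks kept by a filter on like ranks in replicates. The near absence of shared high ranks therefore largely follows from the choice and is no separate result.

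Intronic candidates were found at 60.7%, 62.8% and 64.3% in replicates 1, 2 and 3. The coding share was higher than that by 2.27 percentage points in replicate 1. It was lower in the other two, at −8.55 and −16.3 points (mean −7.53 ± 9.33, SD, n = 3, two-sided exact sign-flip p = 0.5). Promoter candidates were found at 66.8%, 65.5% and 75.2%, and the coding share was lower in 3 of 3 replicates, by a mean difference of −14.1 points ± 11.95 (SD, n = 3, two-sided exact sign-flip p = 0.25). With 3 replicates this exact test cannot go below p = 0.25, here or below. All classes came from the pooled list made of the same reads, so these differences are no independent test either. Median pooled signal was 61.3 in coding, 65.8 in intronic and 71.0 in promoter candidates. Differences taken without regard to signal therefore do not separate class from signal. In full lists the coding share was lower than that of promoters in 2 of 3 replicates (0.797, −11.2 and −15.5 points, mean −8.63, two-sided exact sign-flip p = 0.5). Within 10 equal bins of the pooled list by signal it was lower in 1 of 3 (5.94, 0.212 and −17.8 points), and the mean differences were −0.918 points from introns and −3.88 from promoters (two-sided exact sign-flip p = 0.75 and 1). Without replicate 3 the mean differences were −3.14 and −7.50 points, and without replicate 1 the difference from introns was −12.4.

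**Figure D2:**
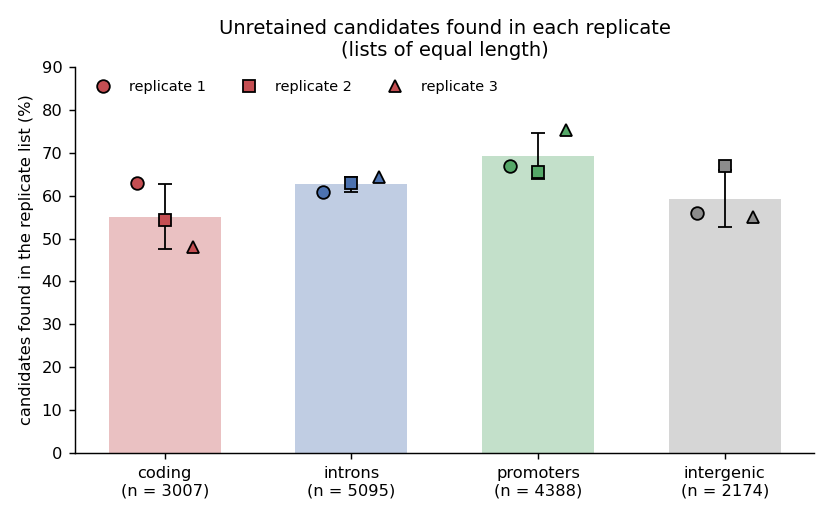
Bars show the mean share of unretained candidates found in the replicate lists of 17977 peaks (y axis, %), with the SD over 3 replicates and a point for each replicate, for candidates in coding exons, introns, promoters and intergenic sequence. Coding candidates have the lowest mean, 55.1%, and their points run from 48.0% to 63.0%, which overlaps the points of introns and intergenic candidates and lies below those of promoters.

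The order of the coding candidates by signal was weakly shared. Spearman's rank correlation between those present in both full lists was 0.0694 for replicates 1 and 2 (n = 1341), 0.0929 for 1 and 3 (n = 1804) and 0.119 for 2 and 3 (n = 1145). For introns the values were 0.239, 0.188 and 0.214, and for promoters 0.168, 0.213 and 0.195. These are across peaks chosen from 1 band of low signal, and peaks are not independent, so they are given as a description only.

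The members with the highest pooled signal show what the strongest of these weak sites look like. The highest was in scrib at a signal of 124.0, and it ranked 2979, 7765 and 1929 in replicates 1, 2 and 3. The next was in meigo, which encodes a protein of the endoplasmic reticulum, at 123.3, with ranks 1903, 17915 and 2739. Both stood inside the best 3123 in replicates 1 and 3 and well outside it in replicate 2. pita, a ZAD zinc finger gene whose protein works at insulators, followed at 122.8 with ranks 3923, 4031 and 2313. cact followed at 120.3 with ranks 2326, 6819 and 3387. Of the 15 with the highest signal, the others lay in Dnaaf4, Sec31, mtd, CG42748, Tsp42Ec, Usp1, CG6330, CG32369, CG10747, CG3702 and bic, and their signals ran from 111.7 to 120.2.

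The 10 members with the best worst rank over the 3 replicates were in part the same. The best by its worst rank was pita, whose worst rank was 4031. Sec31, which encodes an outer coat protein of COPII vesicles, ranked 4096, 3191 and 3812, and Dnaaf4, which encodes an assembly factor of axonemal dynein, ranked 3179, 4713 and 3800. Each of these 2 genes held 2 overlapping members that met the same replicate peaks, so each pair counts as 1 site. The rest of the 10 lay in CG42748, CG6330, Uba1, pyd and blw. The last 3 encode the ubiquitin-activating enzyme, a ZO-1 homologue of cell junctions and the alpha subunit of ATP synthase. All of the 10 were in the full lists of all 3 replicates. That 0 of them were in the best 3123 of all 3 largely follows from leaving out retained peaks.

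Base composition, which the choice did not use, was higher in G and C at the summits. Mean GC in the 200 bp around a summit, where that window lay in 1 coding exon, was 57.1% ± 5.41 (SD over 2095 members), against 53.8% ± 6.41 (SD) in 69379 tiles of 200 bp over eligible coding sequence. Of these members, 73.0% exceeded the median tile, which was at 54%. Windows of at least 65% GC held 7.26% of members and 2.91% of tiles, a ratio of 2.49. Windows under 45% held 1.91% and 8.52%, a ratio of 0.224. By the same criteria in each replicate's own list, windows of at least 65% held 6.28% ± 0.431 (SD, n = 3) and those under 45% held 2.47% ± 0.663, which are on the same sides of the tiles.

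Within the same exon the summit exceeded its flank by a small amount. In the 1091 members with a 200-bp flank window 500 bp away in the same exon, GC was 56.4% at the summit and 54.9% in the flank. The mean difference was 1.59 percentage points ± 5.47 (SD), with the summit higher in 651, lower in 401 and tied in 39 (two-sided exact sign test, p = 1.23e-14). The SD over members was larger than the mean, so single exons often went the other way. In each replicate's own coding candidates the difference was 1.15, 1.62 and 1.05 points (mean 1.27 ± 0.303, SD, n = 3), and it was positive in 3 of 3. All 3 codon positions took part: the difference was 1.72 points at the first, 1.94 at the second and 1.11 at the third, in 1085 members (exact sign tests, Benjamini-Hochberg adjusted p = 0.000391, 5.94e-06 and 0.00483).

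The GC difference did not separate the better supported members from the rest. It was 1.67, 1.51, 1.65 and 1.62 points in members found in 0, 1, 2 and 3 replicates. In 4 equal groups by signal, from the highest to the lowest, it was 1.31, 1.66, 2.18 and 1.21 points. Within 1 intron, unretained intronic summits exceeded their flank by 3.21, 0.351 and 0.720 points in the 3 replicates' own lists (mean 1.43 ± 1.55, SD, n = 3). The difference between coding and intronic candidates was −0.153 points ± 1.72 (SD, n = 3, two-sided exact sign-flip p = 1), so the rise was not shown to be particular to coding exons.

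**Figure D3:**
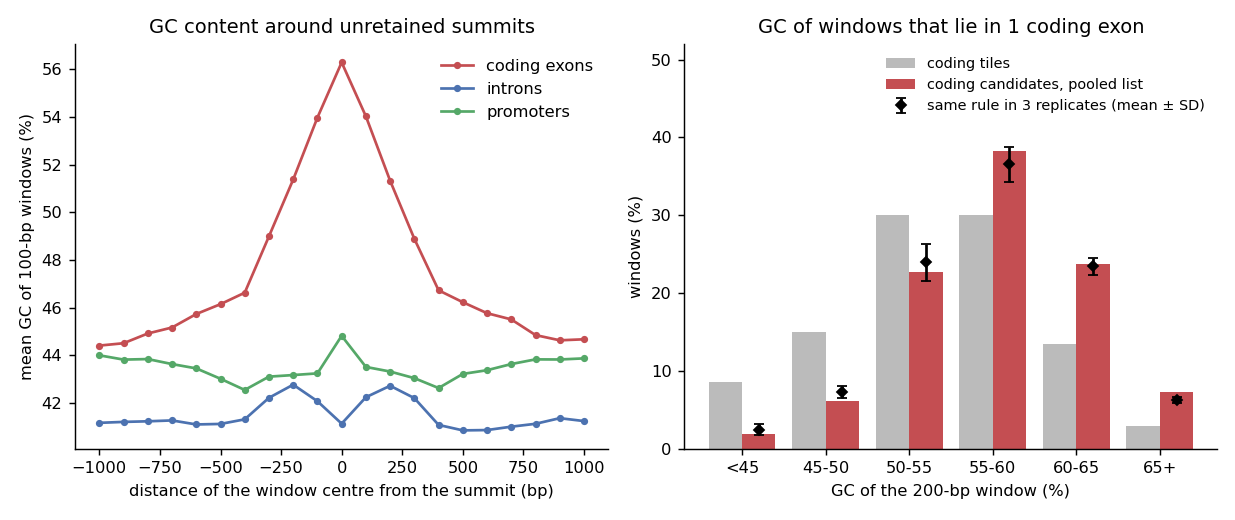
Left, mean GC of 100-bp windows (y axis, %) against distance of the window centre from the summit (x axis, bp) for unretained summits in coding exons, introns and promoters; the coding profile peaks at 56.3% and falls to 44.4% at −1000 bp, where most windows have left the exon. Right, the share of 200-bp windows in 1 coding exon (y axis, %) by GC (x axis, %) for tiles and for coding candidates, with diamonds and bars for the mean and SD of the same rule in 3 replicates; candidates exceed tiles in each class from 55% up.

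The summit was compared with the flank of the same exon for 10 motifs, searched on both strands. The count past an adjusted p of 0.05 was 0 of 10 (0%), and at an unadjusted p under 0.05 it was also 0 of 10 (exact McNemar tests, Benjamini-Hochberg adjusted over 10 motifs). In the exact McNemar tests the smallest unadjusted p was 0.0703, for a CTCF core searched as AGGNGGC, which was in 19.3% of summit windows and 16.3% of flanks (adjusted p = 0.543). The CAG repeat was in 8.62% and 6.87% (exact McNemar adjusted p = 0.543). The GAGA repeat, GAGAGAG, was in 1.92% and 1.10%, and the Zelda site, CAGGTAG, in 2.02% and 2.93%. The E-box core, CAGCTG, was in 18.5% and 18.4%, core promoter motif 7 in 2.84% and 3.02%, motif 1 core, GGTCACAC, in 0.458% and 0.825%, and the CA repeat, CACACACA, in 0.275% and 0.275%. The DNA replication-related element DRE, TATCGATA, and core promoter motif 6 were each in 0 summit windows and 1 flank. The CAG repeat can overlap the E-box core, and no motif was counted in place of another.

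Shares over all members are given as a description, with no test. Of the 3007 member windows, 2095 lay in 1 coding exon and the others reached beyond it. Tiles lay in eligible coding sequence, so shares of members and of tiles are not over like sequence. DRE, a site of housekeeping promoters, was in 3 of 3007 coding candidates (0.0998%) and in 0.146% of coding tiles. It was in 5.22% of unretained promoter candidates and 4.90% of retained peaks. Motif 1 core was in 0.333% of coding candidates, 0.347% of tiles and 4.60% of unretained promoter candidates. Core promoter motif 7 was in 2.89% of coding candidates, 2.59% of tiles, 2.00% of intronic candidates and 6.43% of unretained promoter candidates. The CAG repeat shown above was in 7.48% of coding candidates, 5.92% of tiles and 1.71% of intronic candidates. A match is a run of letters and not a measured site.

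Coding candidates lay nearer to transcript starts than eligible coding bases do. The median distance to the nearest TSS was 1434 bp for the members and 1968 bp for the bases, and by the same criteria in each replicate it was 1556, 1589 and 1314 bp. Members above 500 and under 1000 bp were 31.8% of the total, where 22.6% of the bases lie, a ratio of 1.41. The ratio fell with distance to 1.12 at 1 to 2 kb, 0.848 at 2 to 5 kb, 0.696 at 5 to 10 kb, 0.544 at 10 to 20 kb and 0.282 beyond 20 kb, where 22 members lay. Intronic candidates showed the same order over intronic bases, with a ratio of 1.80 under 1000 bp and 0.388 beyond 20 kb. In the replicates' own lists the ratio under 1000 bp was 1.39 ± 0.170 for coding and 1.75 ± 0.238 for intronic candidates. It was lower for coding in 3 of 3 replicates (mean difference −0.360 ± 0.0800, SD, n = 3, two-sided exact sign-flip p = 0.25). The excess of GC over tiles was alike along this distance, at 3.24 points under 1000 bp, 3.29 at 1 to 2 kb, 3.33 at 2 to 5 kb and 3.27 at 5 to 10 kb. It was 4.93 and 7.75 points at 10 to 20 kb and beyond, over 58 and 15 members.

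Exons of middle length were over-represented among the members, and the shortest and the longest were under-represented. Coding exons of at least 500 and under 1000 bp, with overlapping exons merged, held 33.5% of members and 25.4% of eligible bases, and 32.0% ± 0.534 (SD, n = 3) in the replicates' own lists. Exons under 200 bp held 8.41% and 11.8%, those of 2 to 5 kb 8.11% and 13.6%, and those of at least 5 kb 0.998% and 3.42%. First coding exons held 12.9% of members and 9.24% of bases, last coding exons 29.6% and 25.3%, and internal coding exons 48.5% and 57.1%. The replicates' own lists gave 12.9% ± 0.251, 28.8% ± 0.804 and 49.2% ± 0.777 (SD, n = 3), on the same sides of the bases. Along the coding sequence the median relative position was 0.565, where 0 is the start codon and 1 the stop, beside 0.559 for eligible bases. In members that replicates 1 and 2, 1 and 3, or 2 and 3 both held, it was between 0.527 and 0.533, below the bases. Of 4 equal parts of the coding sequence, the first held 21.3% of members and 17.3% of bases, and 21.1% ± 0.882 (SD, n = 3) in the replicates' own lists. The second held 23.4% and 26.1%, the third 26.1% and 28.5%, and the last 29.2% and 28.2% of members and bases. The nearest retained summit was a median of 6919 bp away, and 186 members (6.19%) were within 1 kb of one, beside 5.55% of intronic candidates.

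The X chromosome held fewer coding candidates than its coding sequence would give. It had 350 members, or 11.6%, and 17.8% of eligible coding bases, a ratio of 0.653. The ratio was 0.686, 0.617 and 0.626 in the replicates' own lists (mean 0.643 ± 0.0374, SD, n = 3). It lay below 1 in 3 of 3, and below that of every large autosomal arm in the same replicate. On those arms the pooled ratio was 1.02 for 2L, 1.10 for 2R, 1.16 for 3L and 1.04 for 3R. On the small chromosome 4, with 42 members, it was 1.03 and ran from 0.667 to 1.75 over the replicates, and among members found in both replicates 1 and 3 it was 0.678.

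The shortfall on the X was smaller in introns and not seen at promoters. Intronic candidates had an X ratio of 0.835 over intronic bases, and in the replicates' own lists the coding ratio was lower than the intronic one in 3 of 3, by a mean difference of −0.200 ± 0.110 (SD, n = 3, two-sided exact sign-flip p = 0.25). Promoter candidates had an X ratio of 1.01 over annotated starts, and 0.911, 1.06 and 0.959 in the replicates, and the coding ratio was lower in 3 of 3 (mean difference −0.335 ± 0.111, SD, n = 3, two-sided exact sign-flip p = 0.25). Coding tiles on the X had a mean GC of 55.7%, above the 53.3% of the other arms. Within windows of 1 GC range the X ratio was 0.804 under 50%, 0.439 from 50 to 55%, 0.627 from 55 to 60% and 0.503 from 60% up. By distance to a TSS it was 0.736 under 1000 bp, 0.679 at 1 to 2 kb, 0.671 at 2 to 5 kb and 0.561 beyond. The ratio was thus under 1 in each of these 8 strata.

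The X ratio also moved with signal. In 4 equal groups of members by signal, from the highest to the lowest, it was 0.388, 0.574, 0.791 and 0.858. In each replicate's own list the candidates above the median signal had ratios of 0.554, 0.479 and 0.508, and those below it had 0.817, 0.755 and 0.745 (mean difference −0.258 ± 0.0200, SD, n = 3, two-sided exact sign-flip p = 0.25). The values above and below the median did not overlap. Members on the X had a median signal of 58.4 and a highest of 97.4, against 61.9 and 124.0 on the other arms. They were found in 56.3%, 45.4% and 42.6% of cases in replicates 1, 2 and 3, where members on the other arms were found in 63.9%, 55.4% and 48.7%.

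**Figure D4:**
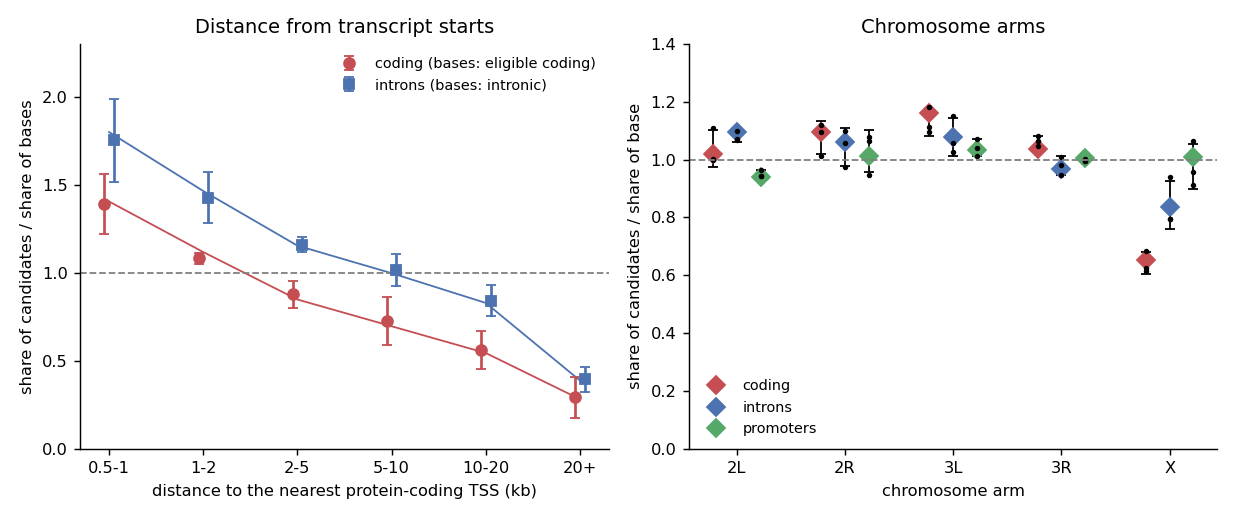
Left, the share of candidates over the share of bases (y axis) by distance to the nearest protein-coding TSS (x axis, kb) for coding and intronic candidates; lines are the pooled list and points with bars the mean and SD of 3 replicates, and both classes fall with distance. Right, the same kind of ratio for the 5 large arms (chromosome 4 is left out), with diamonds for the pooled list, dots for the replicates and bars for mean ± SD; the coding ratio on the X is 0.653 and the dots lie between 0.617 and 0.686.

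The coding candidates were spread over many genes. Of the 12481 protein-coding genes with eligible coding bases, 2504 (20.1%) held at least 1, which is the background for the gene groups below. Of these, 2097 held 1, 332 held 2 and 75 held at least 3. Counting overlapping members once, 348 genes held at least 2 and 59 at least 3. The overall density was 0.159 per kb of eligible coding sequence. When replicates 1, 2 and 3 were left out in turn, and a member had to be found in both others, 674, 791 and 905 genes held one.

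lola, whose many isoforms encode BTB transcription factors, held the most, 6 in 14.6 kb, with signals from 53.9 to 89.8. By the same criteria replicates 1, 2 and 3 placed 6, 8 and 2 candidates in lola. Exn held 5, of which 2 overlapped, and the replicates placed 3, 1 and 0 there. Genes with 4 each, of which tna and eIF3a had an overlapping pair, were tna, eIF3a, Usp1, gw, CG31635, Eip75B, px and Sin3A. eIF3a, a translation initiation factor subunit, had 3 candidates in every replicate. Usp1, a deubiquitinase gene, had 4, 2 and 4, and gw, which acts in silencing by microRNAs, had 1, 3 and 4. Of these 10 genes, only Usp1 had no candidate at its promoter, and the other 9 had a retained peak there. Among all 12481 genes with eligible coding bases, 2165 had a retained promoter peak, as did 728 of the 2504 with a member. In the longest of 4 equal groups by eligible coding length it was 725 of 3121. The 10 were chosen for their many members, and their count was not tested against these.

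Genes with at least 3 members were also ranked by density, and those named here were chosen because theirs was highest. cact had 2.13 per kb, with 3 members at signals of 120.3, 78.6 and 74.6, and the replicates placed 3, 2 and 1 there. CG10055 had 1.97 per kb, and Nprl3, which encodes a subunit of the GATOR1 complex, had 1.93. ThrRS, E(z), the methyltransferase gene of Polycomb repressive complex PRC2, gro, a corepressor gene, and tna were at 1.56, 1.52, 1.37 and 1.31 per kb. Replicates 1, 2 and 3 placed 2, 1 and 1 candidates in CG10055 and in E(z), and 2, 1 and 0 in Nprl3. ThrRS had 1, 1 and 1, gro had 2, 2 and 2, and tna had 3, 3 and 1. All of these genes except cact held an overlapping pair. Counted once, CG10055 had 1.32 per kb, Nprl3 1.28, ThrRS 1.04, E(z) 1.01, gro 0.913 and tna 0.983, and each had 1 site fewer.

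Genes with a peak at their promoter held more coding candidates. Genes with a retained summit within 500 bp of a TSS numbered 2165, and 728 of them (33.6%) held a member, at 0.226 per kb. Genes with only an unretained candidate at the promoter numbered 3646, and 25.8% held one, at 0.179 per kb. The 6670 genes with neither held one in 12.5% of cases, at 0.112 per kb. The order was the same in each of 4 equal groups of genes by eligible coding length, from 0.553, 0.296 and 0.184 per kb in the shortest to 0.185, 0.141 and 0.0889 in the longest. It was also the same for coding sequence more than 2000 bp from any TSS, at 0.159, 0.134 and 0.0814 per kb.

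The replicates gave that order as well. Candidates by the same criteria in replicates 1, 2 and 3 came to 0.243, 0.187 and 0.164 per kb in genes with a retained promoter peak, and to 0.136, 0.105 and 0.0749 per kb in genes with none. The difference was 0.0929 per kb ± 0.0125 and the ratio 1.92 ± 0.237 (SD, n = 3), higher in 3 of 3 replicates (two-sided exact sign-flip p = 0.25). The promoter classes came from the pooled and retained lists, which hold the reads of the same replicates.

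Gene groups were compared by 22 lists of chosen genes, which need not hold every gene of a class. Among these lists, the 28 listed cytoplasmic ribosomal protein genes had the highest density. They held 13 members in 10 of 27 eligible genes, or 0.878 per kb, and 0.811 with overlapping members counted once. The replicates gave 1.01, 0.540 and 0.608 per kb, where all genes gave 0.181, 0.140 and 0.116. The list was thus above all genes in 3 of 3 replicates. Its highest signals were 104.0 in RpL8 and 104.0 and 102.2 in RpL4. RpL8 ranked 2681 and 3915 in replicates 1 and 2 and was not in the list of replicate 3. The 13 summits were a median of 744 bp from a TSS, and 8 of the 10 host genes had a retained promoter peak. Among all 2504 genes with a member, 728 had one. The share among all 27 eligible genes of the list was not taken. These genes are short, with a median of 0.517 kb of eligible coding sequence, and the share of the density that goes with short genes, promoter peaks and closeness to a TSS was not tested.

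The lists next in order were small in count. Heat shock protein genes held 9 members in 9 of 19 genes (0.353 per kb), led by Hsp26 at a signal of 89.8. Polycomb group genes held 17 in 9 of 18 (0.323 per kb), led by Jarid2 at 91.3, and Hox genes held 4 in 3 of 8 (0.315 per kb), with 2 of them in abd-A. Translation factor genes held 9 in 6 of 15 (0.309 per kb), led by eEF2 at 85.3, and insulator genes held 11 in 8 of 15 (0.296 per kb), led by pita and mod(mdg4). Notch pathway genes held 11 in 6 of 15 (0.279 per kb) and ZAD zinc finger genes 7 in 7 of 20 (0.251 per kb). With overlapping members counted once, the Polycomb list had 0.304 per kb, below the Hox list, the translation list had 0.275, below the insulator list, and the Notch list had 0.228, below the ZAD list, where all genes had 0.155. Replicates 2 and 3 put the ZAD list at 0.108 per kb each, below all genes. The Polycomb, heat shock, Hox, translation, insulator and Notch lists were above all genes in 3 of 3 replicates.

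Metabolic genes, trithorax genes, genes of RNA polymerase II and general factors, and genes of chromatin remodelers had 0.222, 0.198, 0.172 and 0.159 per kb, and with overlapping members counted once the trithorax list had 0.176. Members with high signals in them were in blw at 109.9, skd at 71.7, Taf6 at 96.8, TfIIB at 94.8 and Mi-2 at 93.2. Segmentation genes had 0.153 per kb in 5 of 25 genes, among them en, gt and cad, axon guidance genes 0.134 in 11 of 21, and cytochromes P450 0.129 in 4 of 25.

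Genes of large structural and adhesion proteins were at the other end, although many of them held a member. Giant muscle and linker protein genes held 20 in 10 of 15 genes but only 0.0760 per kb, with Mhc, the muscle myosin heavy chain gene, at a highest signal of 79.3. Cadherin and adhesion receptor genes had 0.0567 per kb, led by shg, the E-cadherin gene, at 95.5, and extracellular matrix genes had 0.0544, with 3 members in the 68.8 kb of dpy. Genes of the muscle, cadherin and matrix lists are long, with medians of 9.06, 5.26 and 5.35 kb of eligible coding sequence. The longest of 4 equal groups of all genes by eligible coding length had 0.132 per kb. How much of the low density goes with length and distance to a TSS was not tested. Ion channel and synapse genes had 0.105, chemosensory receptor genes 0.0705 and cuticular protein genes 0.0614 per kb. Yolk and chorion genes held 0 members in 10 genes with 9.31 kb of eligible sequence. Muscle, cadherin, matrix and ion channel lists were below all genes in 3 of 3 replicates, and a single replicate 1 value of 0.307 put the cuticular list above.

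**Figure D5:**
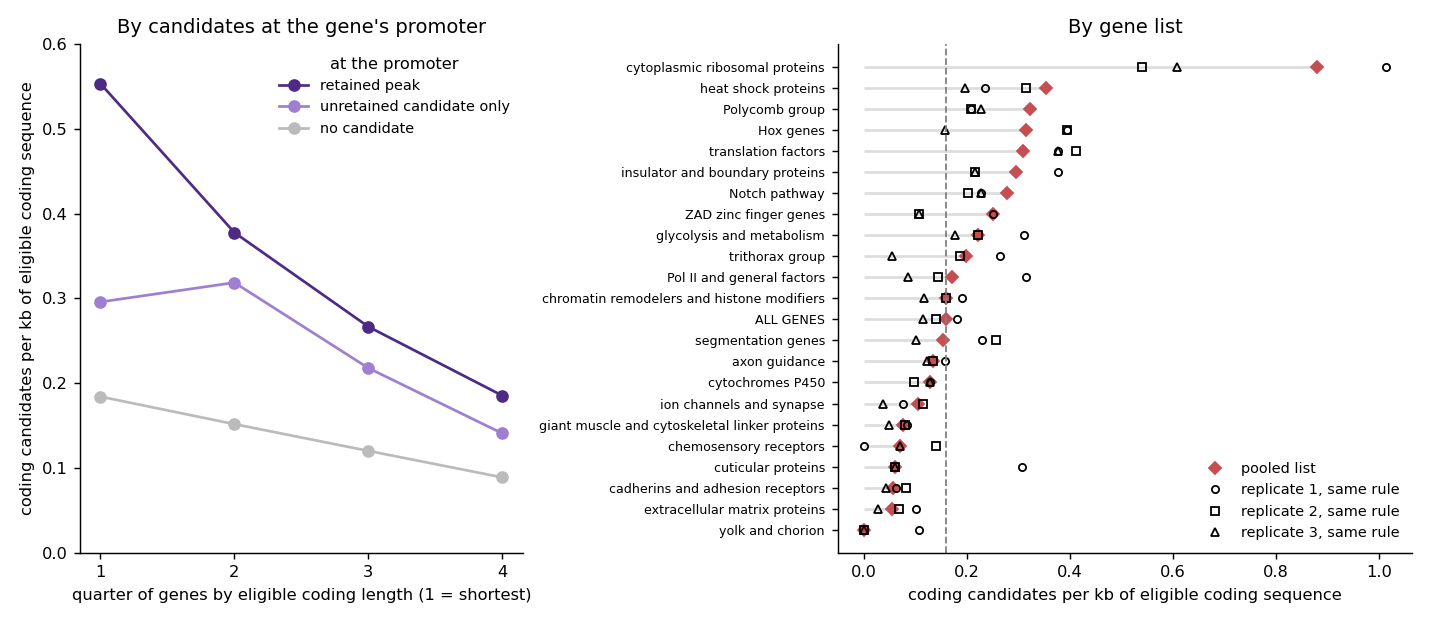
Left, coding candidates per kb of eligible coding sequence (y axis) by group of genes by eligible coding length (x axis, 1 is the shortest of 4 equal groups) for genes with a retained peak, an unretained candidate only or no candidate at the promoter; the 3 lines keep their order in each group. Right, the same density (x axis) for 22 gene lists and all genes, with diamonds for the pooled list and open symbols for the 3 replicates; the dashed line marks all genes at 0.159 per kb and the ribosomal protein list is highest at 0.878.

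CG1647 itself held 1 coding candidate, in coding exon 4, 1034 bp from a TSS. Its signal was 54.3, and it ranked 5645 in replicate 1 and was in neither other list. The gene had a retained peak at its promoter, and the nearest retained summit was 1317 bp away. Where the transgene adds a copy of this coding sequence, its reads cannot be told apart in these lists.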

How the data were processed

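ChIP-seq peak lists on dm6 were used, and the dm3 lists were not. Per the file headers and the labels, the authors made candidate lists per replicate and for the pooled alignments against a control, and a shorter list by IDR. The deposited signal value, the −log10 of the q-value and the summit were used as given. No source used here names the aligner, the caller, the IDR threshold or a version. Genes came from Ensembl release 115 of the same assembly and sequence from RefSeq. Members, lists, motifs and tests were chosen with earlier results of these data known. Of 434 listed symbols, 9 were not matched, some of them older names of listed genes.

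Replicate lists were cut to 17977 peaks, and the same criteria applied to each gave the replicate values. Tests were the two-sided exact sign, McNemar and sign-flip tests, tested on simulated data, with scipy 1.17.1. P-values over members treat them as independent. Those over replicates rest on the signs and sizes of 3 differences, and the SD gives the spread between these 3 samples. Named genes were those of the 15 highest signals, the 10 best worst ranks, the 10 most members, the 8 densest with at least 3 members, up to 3 per list, and CG1647. A few genes that the rule names are not reported here.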

Additional observations from a re-analysis of the deposited data

How the results depend on the processing

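The number of coding candidates stayed within 1.5 times of 3007 with a TSS distance of 200 bp (3582) or 1000 bp (2048), with peak midpoints, with starts of all genes (2910), with coding sequence of every transcript (2595) and with overlapping members counted once (2929, chosen after seeing the data). Members above the median signal numbered 1504, in 1359 genes, by construction. Full replicate lists raised the mean share found from 55.1% to 70.3%. The GC difference kept its sign and stayed past the threshold under every alternative run, from 1.02 points with the flank on the other side (exact sign test, p = 0.0130) to 1.90 without replicate 1. Genes with a member numbered 674 to 905 without 1 replicate. The median relative position was 0.527 to 0.533 without 1 replicate; the cause was not tested. Without 1 replicate the ratio was 0.459 to 0.535 on X, 1.15 to 1.23 on 2R and 1.045 to 1.054 on 3R. Over the share of protein-coding genes in place of bases it was 0.739 on X, 1.03 on 2R, 1.01 on 3R and 2.43 on chromosome 4, and the cause of these moves was not tested. The count of motifs past the threshold was 0 under every alternative run. Motif ratios, the windows with a motif at the summit only over those in the flank only with 0.5 added to each, crossed 1 in a few settings. With the flank on the other side they were 5 for motif 1 core, 1.57 for the Zelda site and 0.879 for the CAG repeat, and with 100-bp windows 1.41 for motif 7 and 0.922 for the E-box core. The E-box core was also at 0.910 with 1 member per gene and at 0.810 to 0.902 without 1 replicate (0.902, 0.901 and 0.810), and the Zelda site was at 0.538 to 1.18 without 1 replicate. The GAGA repeat went from 1.72 to 7.67 with the flank on the other side (exact McNemar adjusted p = 0.0635), to 2.33 with 100-bp windows and to 1.57 to 3.4 without 1 replicate. The CA repeat went from 1 to between 1.67 and 5 without 1 replicate, and the Zelda site from 0.692 to 0.273 with 100-bp windows. With 1 group there was no fit with a replicate block between groups, and differences between classes were taken within replicates. Depth is unknown and limits every rank here.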
